A study of Mus musculus with 12 samples.

Results

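Aquaporins are membrane channels for water, and in several members also for glycerol or ions. In the kidney collecting duct, vasopressin acts through the V2 receptor, cyclic AMP and protein kinase A to move AQP2 into the apical membrane of principal cells and to raise the amount of Aqp2 transcript, while AQP3 and AQP4 carry water out across the basolateral membrane. Aqp2, Aqp5 and Aqp6 are neighbours in the genome and are thought to have arisen by tandem duplication. They were examined here together with the genes on both sides, Faim2 and Racgap1, with the long non-coding RNA gene Gm34765 that overlaps them, with Aqp3, and with each further aquaporin that had at least 10 reads in all libraries together. This gave 10 genes of the 25208 in the table, 7 of them named by symbol and 3 added by the read minimum (Aqp1, Aqp4 and Aqp11). Of the 8 aquaporin symbols in the table, Aqp8, with 4 reads in all, fell below that minimum.

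RNA was sequenced from mpkCCDc11 cells, an immortalised mouse line from the cortical collecting duct, so all 12 libraries come from 1 cell line. The cells of all 4 groups were transfected with 50 nM siRNA, grown on permeable supports for 4 days and kept 24 h in medium free of serum and hormones. The groups of 3 libraries were control siRNA with vehicle, control siRNA with 1 nM dDAVP given basolaterally for 24 h, Ctnnb1 siRNA with vehicle and Ctnnb1 siRNA with the same dDAVP treatment. dDAVP is an agonist selective for the V2 receptor, and Ctnnb1 encodes beta-catenin, a junction protein and the transcriptional effector of Wnt signalling. The control groups are labelled as wild type and the others as a knockdown. Nothing in the labels marks replicates as separate cultures. The p-values therefore describe the spread among these libraries, and that spread may be technical.

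Libraries held 32997720 to 48935473 counted reads. Ctnnb1 was at 745 to 811 CPM (counts relative to the TMM-scaled library size) in the 6 control-siRNA libraries and at 306 to 342 CPM in the 6 Ctnnb1-siRNA libraries. Replicate 3 of the Ctnnb1-siRNA dDAVP group stood apart from its group: its counts differed from those of its mates by a chi-square of 39.4 and 63.8 per degree of freedom, against 5.11 to 23.5 for the other replicate pairs. Mitochondrial ribosomal RNA took 1.52% of its reads, against 0.831% and 0.464% in replicates 1 and 2. The next highest share of all libraries was 1.27%, in control-siRNA dDAVP replicate 1. Since Ctnnb1-siRNA dDAVP replicate 3 stood apart, the fold changes of the 10 genes that include it are also given without it. The principal cell markers Avpr2 (29.8 to 44.9 TPM, the deposited length-normalised level) and Hsd11b2 (15.4 to 29.7 TPM) were present in every library, whereas Kcnj1 and Elf5 did not exceed 0.05 TPM and Scnn1b did not exceed 0.37 TPM. The summed level of the 15 principal cell markers was 235 to 318 TPM, of which Tfcp2l1 made 90.0 to 117 TPM. All 5 epithelial markers were in the table, with a summed level of 3574 to 4140 TPM.

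On chromosome 15 of GRCm38, Aqp2 (gene ID 11827) lies at 99579056 to 99584545, Aqp5 (11830) at 99591028 to 99594829 and Aqp6 (11831) at 99598468 to 99605478, all on the plus strand. By the RefSeq annotation the gaps are 6.48 kb between Aqp2 and Aqp5 and 3.64 kb between Aqp5 and Aqp6. Faim2 (72393, 99497005 to 99534880) ends 44.2 kb before Aqp2, and Racgap1 (26934, 99620496 to 99651656) begins 15.02 kb after Aqp6. Gm34765 (102638128, 99575652 to 99601542) is on the minus strand. Its span covers 100% of Aqp2 and of Aqp5 and 43.9% of Aqp6, and its start site lies 142 bases inside the first exon of Aqp6 in the GENCODE M21 annotation. Outside this locus, Aqp3 (11828) is on chromosome 4 at 41092724 to 41098183, Aqp1 on chromosome 6 at 55336299 to 55348555, and Aqp11 on chromosome 7 at 97726379 to 97738247.

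The 250 bases before the start sites of Aqp2 and Aqp5 are shown because these 2 genes had the highest TPM of the aquaporins after dDAVP and their windows differ in base composition. They are from RefSeq (GRCm38.p6, plus strand, chr15:99578806-99579055 and chr15:99590778-99591027), written 5′ to 3′. Capitals mark matches, on either strand, to TGACG (the core of the cyclic AMP response element) and GATAAG, the motif of the zinc finger factors named after it.
Aqp2: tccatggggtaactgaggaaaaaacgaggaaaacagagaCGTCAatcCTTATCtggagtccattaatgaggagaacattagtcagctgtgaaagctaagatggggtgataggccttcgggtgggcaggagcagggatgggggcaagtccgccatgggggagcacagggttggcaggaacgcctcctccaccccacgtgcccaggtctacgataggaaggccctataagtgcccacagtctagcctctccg
Aqp5: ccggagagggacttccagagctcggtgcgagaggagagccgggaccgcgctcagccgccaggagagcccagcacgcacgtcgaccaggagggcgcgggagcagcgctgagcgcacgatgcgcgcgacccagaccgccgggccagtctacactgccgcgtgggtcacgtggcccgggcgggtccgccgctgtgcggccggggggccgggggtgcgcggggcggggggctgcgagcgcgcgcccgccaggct
G and C made up 55.6% of the Aqp2 bases shown and 78.4% of the Aqp5 bases. A set of 6 motifs was searched on both strands in the 300-base windows from 250 bases before to 50 after each start, of which 32851 were available genome-wide. The Aqp6 window belongs to a start site at 99601200, which is 2.73 kb inside the span given above, and the bases before 99598468 were not searched. In the Aqp2 window TGACG was found on the minus strand at -211 to -207 and GATAAG on the minus strand at -203 to -198, counted from the start site. These motifs were present in 20.8% and 7.44% of all windows. GGAAA (the NFAT core) occurred in the Aqp2 window at -234 to -230 and at -223 to -219, and was present in 61.3% of all windows. The full element TGACGTCA, which contains TGACG, was not found in the Aqp2 window (1.79% of all windows), nor were TGACTCA (AP-1, 5.20%) and TTCAAAG (TCF/LEF, 5.14%). None of the 6 motifs was found in the windows of Aqp5, Aqp6, Aqp3, Gm34765 and Racgap1. The windows of Aqp1 and Aqp11 held 2 and 1 matches to GGAAA and no other match. A window was at hand for 8 of the 10 genes, not for Faim2 and Aqp4, and letters absent from such a window say nothing about binding elsewhere.

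The first comparison asks what V2 receptor stimulation does to these genes when the siRNA is a control. Aqp2, Aqp5, Aqp6, Aqp3 and Gm34765 rose, Faim2, Racgap1 and Aqp11 did not pass the test, and Aqp1 and Aqp4 had too few reads to be tested. In this comparison 5 of the 8 tested genes were called higher and 0 lower, where 1.91% of the 16508 tested genes were called higher and 0.915% lower. A call means an adjusted p under 0.05 in the quasi-likelihood test of edgeR. Adjusted p-values are from that test, with Benjamini-Hochberg adjustment over every gene tested, unless another is named. Aqp2 and Gm34765 passed the filter on low counts through their dDAVP libraries, so their entry into the test was not independent of the response. The 3 dDAVP libraries did not overlap the 3 vehicle libraries in 6 of the 8 genes, against 22.2% of all tested genes. In such bulk RNA, more expressing cells and more RNA per cell cannot be told apart.

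Aqp2, the vasopressin-regulated water channel of principal cells, was near the limit of detection without dDAVP. The control-siRNA vehicle libraries held 2, 0 and 0 reads of Aqp2, and the dDAVP libraries held 302, 189 and 279 reads, or 7.69, 4.78 and 5.88 CPM. All dDAVP libraries were far above all vehicle libraries, and replicate 1 was the highest. Scaled for library size, the ratio of reads was 392 (95% counting interval 108 to 3244), and the fitted log2 fold change was 8.38 (SE 0.52, adjusted p = 2.2e-07). The SE was derived from the test statistic, and with 2 vehicle reads it is smaller than the counting interval implies. Both vehicle reads were in replicate 1, and without that library the fitted log2 value was 11.03. No vehicle read is left in that fit, so the value has no finite ratio of reads behind it. A count of 0 allows up to 0.0895 CPM in vehicle replicate 2 and up to 0.0651 CPM in replicate 3.

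Aqp5, a water channel best known from salivary, lacrimal and lung epithelia, was the most abundant aquaporin in every library. Its values were 4.94, 4.26 and 3.43 CPM with vehicle and 20.4, 21.1 and 19.8 CPM with dDAVP. The spread among the dDAVP libraries (SD 0.654 CPM, n = 3) was small beside the gap between the groups. Aqp5 was 4.85-fold higher with dDAVP (log2 2.28, SE 0.13, adjusted p = 1.13e-07).

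Aqp6, an anion-permeable channel of intercalated cell vesicles, stood at 1.39, 1.28 and 1.00 CPM with vehicle. With dDAVP it stood at 4.91, 2.78 and 3.14 CPM. The groups did not overlap, and dDAVP replicate 1 was again the highest library, as for Aqp2. Aqp6 was 2.95-fold higher (log2 1.56, SE 0.25, adjusted p = 0.0024). On the deposited TPM values, tested with limma as log2(TPM + 1), its adjusted p was 0.052.

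Gm34765, the antisense non-coding RNA, had 0, 0 and 1 reads with vehicle and 13, 16 and 25 reads with dDAVP. Its ratio of reads was 55.0 (95% counting interval 9.46 to 2212), and its fitted log2 fold change was 5.32 (SE 0.96, adjusted p = 0.00523). That SE too is smaller than the counting interval implies. Without vehicle replicate 3, which held the only vehicle read, the fitted log2 value was 7.20, with no finite ratio of reads behind it. In dDAVP libraries its reads came to 4.30%, 8.47% and 8.96% of those of Aqp2, and to 1.42% of those of Aqp2, Aqp5 and Aqp6 over the 3 libraries together. The libraries are strand-specific, but use of the strand in counting is not stated, so reads of Gm34765 and of the 3 aquaporins it overlaps may not be told apart. Replicate 1, the highest for Aqp2 and Aqp6, was the lowest for Gm34765, with 13 reads against 16 and 25. That order was not tested.

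Neither flanking gene passed the test. Racgap1, a regulator of cytokinesis, stood at 228 to 243 CPM with vehicle and at 226 to 233 CPM with dDAVP, so the groups overlapped. Its log2 difference was -0.03 (95% interval -0.14 to 0.07, adjusted p = 0.796). Faim2, an inhibitor of Fas-mediated cell death, had 17, 11 and 7 reads with vehicle and 32, 37 and 32 reads with dDAVP, without overlap of the groups. Its log2 fold change was 1.55 (SE 0.45), but its adjusted p of 0.0904 missed the threshold, and it was 0.0443 in a fit of these 2 groups and 0.04 without the Ctnnb1-siRNA dDAVP replicate 3 library, which shares the estimate of spread.

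**Figure D1:**
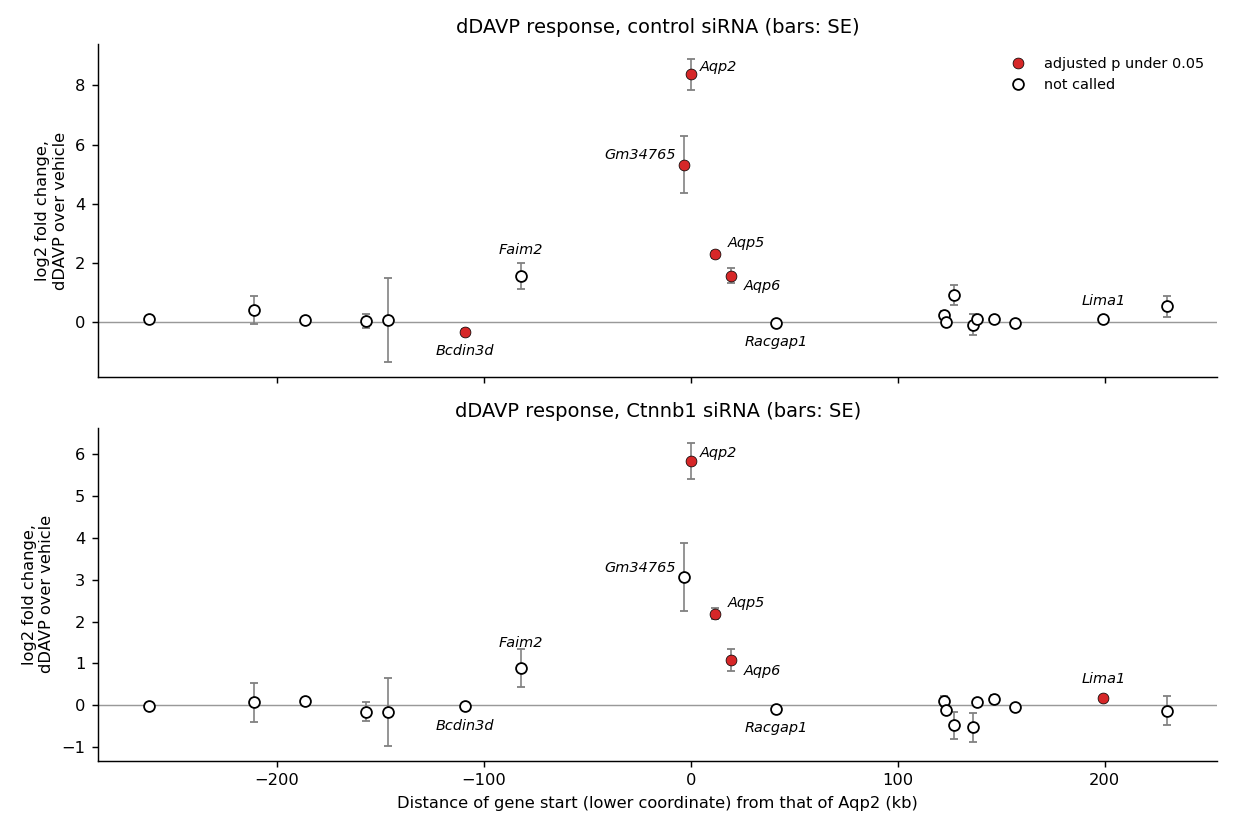
Log2 fold change of dDAVP over vehicle (y axis, bars are SE) for the 21 tested genes within 250 kb of Aqp2, by the distance of each gene's lower coordinate from that of Aqp2 in kb (x axis), with control siRNA (top) and Ctnnb1 siRNA (bottom). Filled points passed an adjusted p of 0.05: with control siRNA these were Aqp2, Gm34765, Aqp5 and Aqp6 above 0 and Bcdin3d below, uncalled Faim2 lies level with Aqp6, and the y axes differ between panels. The SE of Aqp2 and of Gm34765 is smaller than their counting intervals imply.

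Within 250 kb of Aqp2 lay 25 genes of the table. Tests covered 21 of them, 15 of which are outside the set described here. These 15 had log2 differences of -0.34 to 0.90 with control siRNA, with a median of 0.07. The single call among them was Bcdin3d, an RNA methyltransferase gene, which fell by 0.34 on the log2 scale (SE 0.08, adjusted p = 0.0352). With Ctnnb1 siRNA the 15 genes ran from -0.53 to 0.18, with a median of -0.03, and the single call was Lima1, an actin-binding protein gene, which rose by 0.18 (SE 0.05, adjusted p = 0.0433). With control siRNA the genes of the window called higher were Aqp2, Gm34765, Aqp5 and Aqp6, and the uncalled Faim2 had a log2 value close to that of Aqp6 (1.55 and 1.56).

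Aqp3, a basolateral water and glycerol channel of principal cells on another chromosome, rose by less. Its values were 0.490, 0.626 and 0.499 CPM with vehicle and 1.43, 1.32 and 0.948 CPM with dDAVP. The groups did not overlap, and Aqp3 was 2.29-fold higher (log2 1.19, SE 0.30, adjusted p = 0.0445). The call lay near the threshold, and with no filter in edgeR it was lost (adjusted p = 0.0506). It was also lost without control-siRNA vehicle replicate 1, 2 or 3 (adjusted p = 0.15, 0.0892 and 0.172), control-siRNA dDAVP replicate 1 or 2 (0.168 and 0.0867), replicate 2 of Ctnnb1 siRNA with vehicle (0.0667) or replicate 1 of Ctnnb1 siRNA with dDAVP (0.0586). The log2 value in these fits was 1.07 to 1.31.

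Of the 3 scarcest aquaporins, none gave a call. Aqp11, an intracellular aquaporin of the proximal tubule, had 13, 11 and 9 reads with vehicle and 0, 11 and 13 with dDAVP, so the groups overlapped. Its log2 difference was -0.46 (95% interval -2.08 to 1.15, adjusted p = 0.828). Aqp1, the water channel of proximal tubule and descending thin limb, had 6, 8 and 9 reads with vehicle and 2, 2 and 0 with dDAVP, without overlap. Its ratio of reads, dDAVP over vehicle, was 0.177 (95% counting interval 0.0445 to 0.518), which covers counting error only, and tested with no filter in edgeR its adjusted p was 0.517. Aqp4, the other basolateral channel of principal cells, had 7, 0 and 2 reads with vehicle and 14, 3 and 6 with dDAVP. These overlapped, and its adjusted p with no filter was 0.667.

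**Figure D2:**
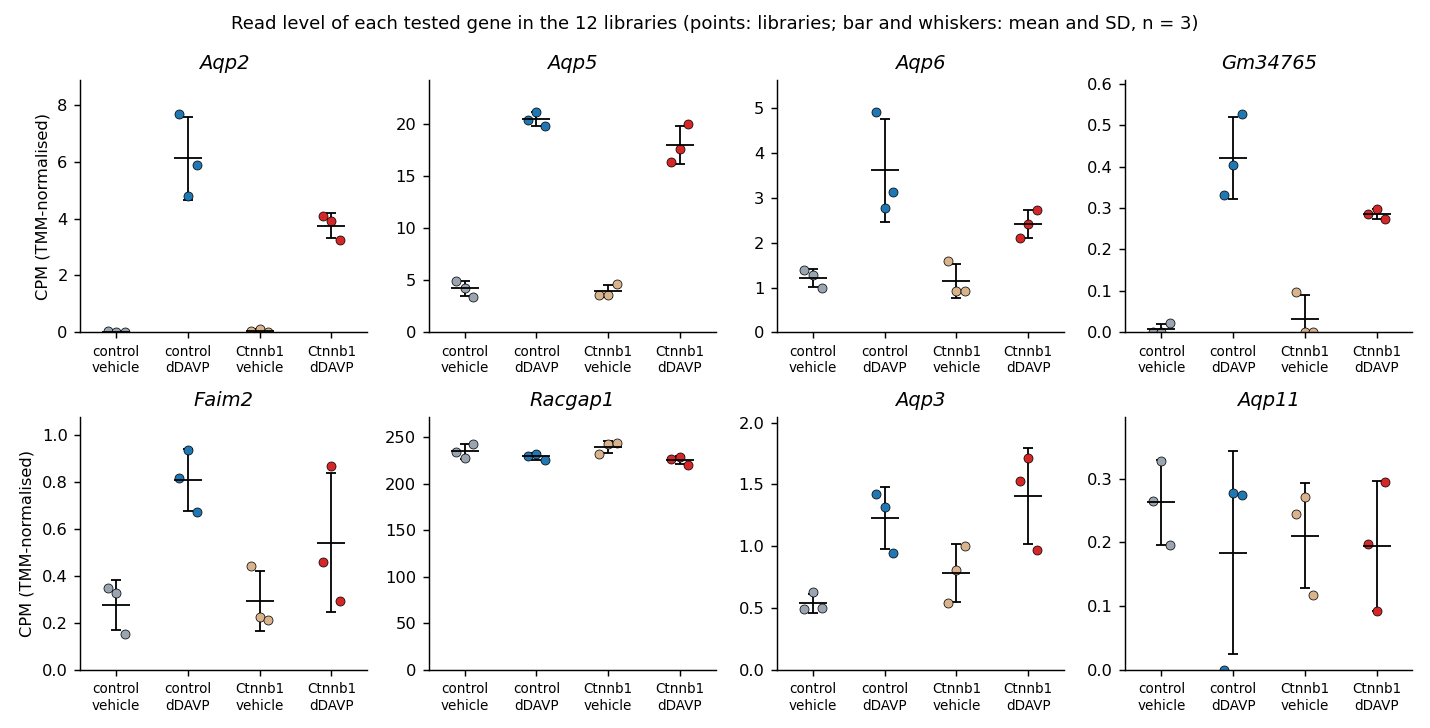
Library values (points) of the 8 tested genes in CPM on the y axis, for the 4 groups of 3 libraries on the x axis, with the mean and SD of each group. Both dDAVP groups lie above both vehicle groups for Aqp2, Aqp5, Aqp6 and Gm34765, while Racgap1 stays between 221 and 244 CPM.

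The second comparison repeats the dDAVP treatment in cells given Ctnnb1 siRNA. Aqp2, Aqp5 and Aqp6 rose again, while Aqp3, Gm34765 and Faim2 were higher by log2 0.83, 3.07 and 0.88 without passing the test. In this comparison 3 of the 8 tested genes were called higher and 0 lower, where 2.08% of all tested genes were called higher and 0.697% lower. The libraries of the 2 treatments did not overlap in 5 of the 8 genes, against 17.8% of all tested genes. Among these 5, Racgap1 was lower with dDAVP and was not called.

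With Ctnnb1 siRNA, Aqp2 had 2, 6 and 0 reads with vehicle and 187, 171 and 155 with dDAVP, the latter being 4.09, 3.91 and 3.26 CPM. The ratio of reads was 60.0 (95% counting interval 30.2 to 140) and the fitted log2 fold change 5.85 (SE 0.44, adjusted p = 1.76e-06). Here too the SE is smaller than the counting interval implies. Without vehicle replicate 2, which held 6 of the 8 vehicle reads, the log2 value was 7.13. Aqp5 went from 3.62, 3.58 and 4.64 CPM to 16.4, 17.6 and 19.9 CPM, which was 4.55-fold (log2 2.18, SE 0.13, adjusted p = 1.39e-07). dDAVP replicate 3, the library that stood apart, was the highest of its group for Aqp5 and the lowest for Aqp2. Without it the log2 fold changes were 5.94 for Aqp2 and 2.10 for Aqp5, and both stayed called.

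Aqp6 stood at 1.59, 0.924 and 0.933 CPM with vehicle and at 2.10, 2.42 and 2.74 CPM with dDAVP in these cells. It was 2.11-fold higher (log2 1.08, SE 0.26, adjusted p = 0.0355), and the groups did not overlap. This call was lost without Ctnnb1-siRNA dDAVP replicate 3 (log2 0.98, adjusted p = 0.0816) or replicate 2 (0.072), Ctnnb1-siRNA vehicle replicate 2 or 3 (0.19 and 0.141), control-siRNA vehicle replicate 2 (0.0541) or control-siRNA dDAVP replicate 3 (0.0514). It was also lost in a fit of the 2 groups (0.057) and with limma on log2(TPM + 1) and log2(TPM + 0.1) (0.218 and 0.168). Aqp3 went from 0.539, 0.811 and 1.00 CPM to 1.53, 1.71 and 0.969 CPM. Its groups overlapped through dDAVP replicate 3, and its log2 fold change of 0.83 (SE 0.28) had an adjusted p of 0.159, or 1.04 and 0.0581 without that library.

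Gm34765 had 4, 0 and 0 reads with vehicle and 13 in each dDAVP library, a ratio of 9.12 (95% counting interval 3.29 to 35.1). Its adjusted p was 0.0563, and it was 0.0122 without vehicle replicate 1, which held all 4 reads, and 0.077 without dDAVP replicate 3 (log2 3.10). In the dDAVP libraries its reads were 6.95%, 7.60% and 8.39% of those of Aqp2. Faim2 had 18, 10 and 9 reads with vehicle and 21, 38 and 14 with dDAVP, which overlapped (adjusted p = 0.437). Without dDAVP replicate 3 its log2 value was 1.18 (adjusted p = 0.199). Racgap1 was at 232 to 244 CPM with vehicle and at 221 to 229 CPM with dDAVP, without overlap, but its log2 difference of -0.09 (95% interval -0.19 to 0.02) did not pass the test (adjusted p = 0.437, or -0.07 and 0.484 without dDAVP replicate 3).

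The remaining comparisons ask whether lowering Ctnnb1 moved these genes. With vehicle, 0 of the 8 genes were called, where 0.43% of all tested genes were (1.09% without Ctnnb1-siRNA dDAVP replicate 3), and 0 were called by DESeq2 or at an unadjusted p under 0.05. The groups overlapped in all 8 genes. Aqp5 differed by log2 -0.09 (95% interval -0.42 to 0.23) and Aqp6 by -0.09 (-0.72 to 0.54). Aqp2 had 8 reads with Ctnnb1 siRNA and 2 with control siRNA over 3 libraries each, a ratio of 4.02 (95% counting interval 0.802 to 38.8). Aqp3 was higher by log2 0.56 (-0.16 to 1.27), which did not pass the test (adjusted p = 0.719). Untested Aqp1 had 3, 4 and 2 reads with Ctnnb1 siRNA against 6, 8 and 9, a ratio of 0.393 (95% counting interval 0.16 to 0.882), and with no filter its adjusted p was 0.844.

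With dDAVP, 0 of the 8 genes were called between siRNAs, where 0.267% of all tested genes were, and 0 by DESeq2. Without Ctnnb1-siRNA dDAVP replicate 3 it was again 0 of the 8, where 1.31% of all tested genes were called. At an unadjusted p under 0.05 there were 2, Aqp2 and Aqp6. Without control-siRNA dDAVP replicate 1, the highest library for both genes, edgeR gave 0 of the 8 at that level. The Aqp2 values were 7.69, 4.78 and 5.88 CPM with control siRNA and 4.09, 3.91 and 3.26 CPM with Ctnnb1 siRNA. All 3 knockdown libraries lay below all 3 control libraries, and the exact two-sided permutation p was 0.1, the smallest that 3 against 3 can give. The Aqp2 level with Ctnnb1 siRNA was 0.614 of that with control siRNA (log2 -0.70, SE 0.25, 95% interval -1.28 to -0.13, unadjusted p = 0.0131), and the adjusted p was 0.287. Over the alternatives tried, the log2 value lay between -0.85 and -0.51, with an adjusted p of 0.107 to 0.753. Without Ctnnb1-siRNA dDAVP replicate 3 it was -0.61 (adjusted p = 0.227).

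Aqp6 showed the same order, with 2.10 to 2.74 CPM after Ctnnb1 siRNA and 2.78 to 4.91 CPM after control siRNA. Its log2 difference was -0.57 (SE 0.24, unadjusted p = 0.0295, adjusted p = 0.364). Without Ctnnb1-siRNA dDAVP replicate 3 it was -0.67 (adjusted p = 0.182). Over the alternatives tried, the Aqp6 log2 value lay between -0.73 and -0.29, with an adjusted p of 0.170 to 0.870. The gap between the nearest libraries, 2.74 and 2.78 CPM, was small. Gm34765 had 13, 13 and 13 reads against 13, 16 and 25, with no overlap in CPM (log2 -0.57, SE 0.55, adjusted p = 0.734). For Aqp5 the groups overlapped, with a log2 difference of -0.19 (95% interval -0.46 to 0.09, adjusted p = 0.574). Aqp3 differed by 0.20 (-0.43 to 0.82, adjusted p = 0.825) and Racgap1 by -0.02 (-0.13 to 0.08, adjusted p = 0.869). Without that library the log2 values were -0.54 for Gm34765, -0.27 for Aqp5 (adjusted p = 0.24), 0.41 for Aqp3 and -0.00877 for Racgap1, and none was called. Lack of overlap was seen in 3 of the 8 genes, against 13.3% of all tested genes.

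**Figure D3:**
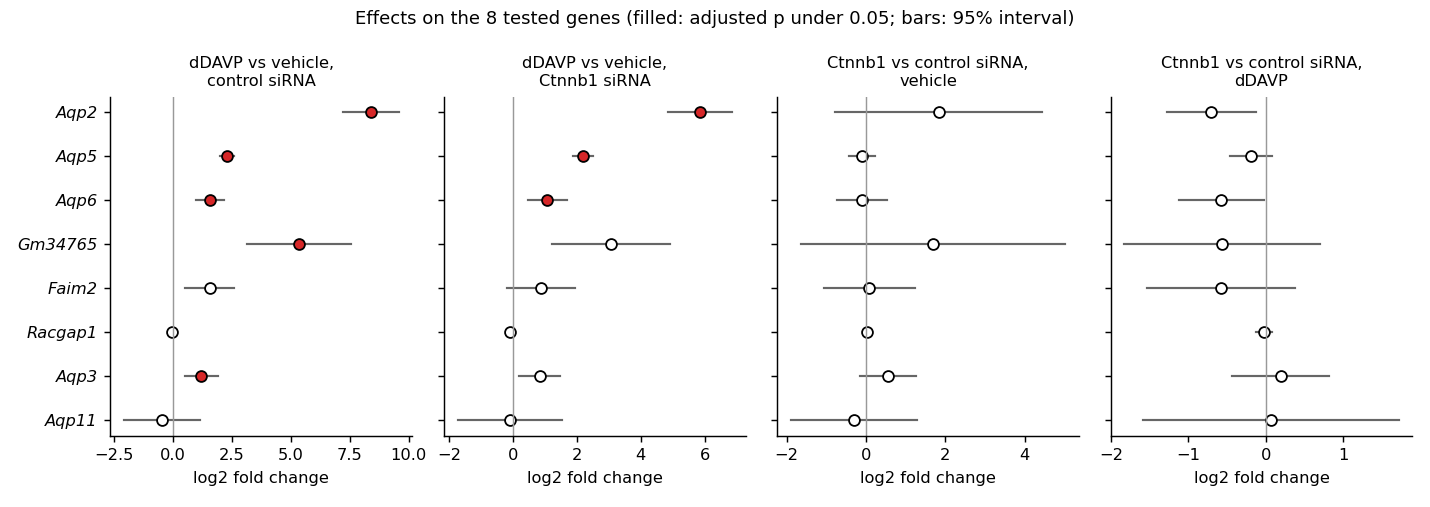
Log2 fold change (x axis) with its 95% interval for the 8 tested genes (y axis) in the 4 pairwise comparisons, with filled points for an adjusted p under 0.05. Calls are confined to the dDAVP comparisons, 5 with control siRNA and 3 with Ctnnb1 siRNA, and the x axes differ between panels. For Aqp2 and Gm34765 with dDAVP and control siRNA, the intervals are narrower than the counting intervals.

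The difference between the dDAVP responses with the 2 siRNAs was tested as an interaction. It was called for 0 of the 8 genes, as for 0% of all tested genes, and at an unadjusted p under 0.05 only for Aqp2 (DESeq2 called 0 of the 8, with 1 at an unadjusted p under 0.05). For Aqp2 the fitted difference in response, Ctnnb1 siRNA minus control siRNA, was log2 -2.53 (SE 1.16, 95% interval -5.20 to 0.14, unadjusted p = 0.0449, adjusted p = 0.918). The interval includes 0 beside that unadjusted p because it takes fewer degrees of freedom than the test. The log2 value rests on the 2 and 8 vehicle reads of the groups. It was -5.19 without control-siRNA vehicle replicate 1, which leaves no vehicle read with control siRNA and so no finite estimate. Without Ctnnb1-siRNA vehicle replicate 2 it was -1.25. For Aqp5 the interaction was -0.09 (95% interval -0.52 to 0.33, adjusted p = 0.969) and for Aqp6 -0.48 (-1.32 to 0.36, adjusted p = 0.925). Without Ctnnb1-siRNA dDAVP replicate 3 the interaction was -2.44 for Aqp2 (adjusted p = 0.494), -0.18 for Aqp5 (0.735) and -0.58 for Aqp6 (0.588), and 0 of the 8 genes had an unadjusted p under 0.05. The 2 siRNA comparisons and the 2 dDAVP comparisons share libraries, so their values are not independent.

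Levels were compared between genes per transcript length, on the authors' TPM values. With control siRNA and vehicle, the mean TPM was 5.54 for Aqp5, 0.90 for Aqp6, 0.613 for Aqp3, 0.383 for Aqp11, 0.133 for Aqp1, and 0.02 each for Aqp2 and Aqp4. Aqp11 and Aqp1 changed places when levels were recomputed from reads per kilobase of annotated exons on the TPM scale (0.091 and 0.232). Aqp5 held 70.4% to 76.1% of the summed aquaporin TPM in these libraries, and that sum was 8.23, 7.95 and 6.66 TPM. The ranges of Aqp6 (0.85 to 0.93 TPM) and Aqp3 (0.54 to 0.71 TPM) did not meet, whereas with Ctnnb1 siRNA those of Aqp6 (0.37 to 1.29 TPM) and Aqp3 (0.59 to 1.08 TPM) did.

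After dDAVP the control-siRNA sums were 44.05, 35.55 and 38.04 TPM. The order changed by the entry of Aqp2: Aqp5 was at 25.7 to 27.2 TPM, Aqp2 at 6.35 to 11.25 TPM, Aqp6 at 1.67 to 3.80 TPM and Aqp3 at 1.07 to 1.65 TPM. The ranges of these 4 neighbours in the order did not overlap. Aqp2 was thus below Aqp5 per length even after treatment, with a ratio of Aqp2 to Aqp5 of 0.414, 0.248 and 0.323 in the 3 libraries. The ratio of the group means was 0.33 on this scale and 0.553 on reads per kilobase of annotated exons. Racgap1, at 147 to 161 TPM, was above all of them, and Gm34765, at 0.38 to 0.86 TPM, was below Aqp3.

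With Ctnnb1 siRNA and dDAVP the sums were 28.4, 28.0 and 34.3 TPM, below the 3 control-siRNA values, a difference that was not tested. Between siRNAs with dDAVP, the median log2 difference of all tested genes was -0.0654 on log2(TPM + 1), against 0.00108 by edgeR. Aqp5 was at 19.7 to 25.8 TPM, Aqp2 at 4.62 to 5.37 TPM, Aqp6 at 1.33 to 2.42 TPM and Aqp3 at 1.08 to 1.70 TPM, of which the last 2 overlapped. The ratio of Aqp2 to Aqp5 was 0.273, 0.242 and 0.179, a range that overlaps that of control siRNA, and that of the group means was 0.227, or 0.379 per kilobase of annotated exons. The TPM of Aqp6 per CPM of its reads varied from 0.397 to 0.932 between libraries, against 1.13 to 1.37 for Aqp5. Aqp6 has 2 transcripts in the table and Aqp5 has 1.

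Across the 12 libraries, genes were ranked by how closely their log2 CPM followed that of Aqp5 or Aqp2, among 13226 tested genes with a mean of at least 1 CPM outside the set. The 5 nearest to Aqp5 by Pearson correlation were Rassf10 (0.988), Arg2 (0.987), Chp1 (0.986), Baiap2l2 (0.983) and Marveld1 (0.980). Arg2 encodes mitochondrial arginase, and its log2 response to dDAVP was 2.07 with control siRNA and 2.12 with Ctnnb1 siRNA, against 2.28 and 2.18 for Aqp5. The 5 nearest to Aqp2 were Rgs2 (0.982), Baiap2l2 (0.978), Nr4a1 (0.978), Bcat1 (0.977) and Srxn1 (0.973). Rgs2, a regulator of G protein signalling, had log2 responses of 1.71 and 1.35, and Nr4a1, an orphan nuclear receptor, of 1.76 and 1.21. The 12 points share the dDAVP contrast, so no p is given. Within the set the same correlation was 0.968 between Aqp2 and Aqp5, 0.938 between Aqp2 and Gm34765, 0.901 between Aqp5 and Aqp6, and 0.804 between Aqp5 and Aqp3.

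Genes linked to Aqp2 were followed as lists, which were chosen with earlier results of these data known. Of 19 genes of the V2 receptor and cyclic AMP pathway, all tested, 5 rose and 0 fell with dDAVP under each siRNA, where 1.91% and 2.08% of all tested genes rose with control and Ctnnb1 siRNA. They were Pde4b and Pde4d, phosphodiesterases that break down cyclic AMP, Prkar2b, a regulatory subunit of protein kinase A, Crem, a cyclic AMP responsive transcription factor, and Avpr2, the receptor itself. Pde4b rose by log2 3.16 (SE 0.17) with control siRNA and by 3.12 (SE 0.17) with Ctnnb1 siRNA. Avpr2 rose by 0.45 (SE 0.09) and 0.43 (SE 0.09). The median over the list was 0.15 with control siRNA and 0.10 with Ctnnb1 siRNA, against -0.00422 and -0.00493 over all tested genes. Between siRNAs edgeR called 0 of the 19 with either treatment, and 3 with vehicle and 1 with dDAVP had an unadjusted p under 0.05. The 0 calls are near the 0.43% and 0.267% of all tested genes called with vehicle and dDAVP.

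Of 23 transcription regulators proposed to act on Aqp2, 21 were tested. With control siRNA 3 rose with dDAVP, the AP-1 subunit Fos (log2 0.84, SE 0.09), the Kruppel-like factor Klf5 (0.49, SE 0.11) and the retinoid receptor Rxra (0.20, SE 0.05), and Jun, the AP-1 partner of Fos, fell (-0.31, SE 0.07). With Ctnnb1 siRNA 4 rose and 0 fell: Fos (0.81), Cebpb (0.47), Elf3 (0.51) and the mineralocorticoid receptor Nr3c2 (0.72, SE 0.18). Of all tested genes, 1.91% and 2.08% were called higher with control and Ctnnb1 siRNA, and 0.915% and 0.697% lower. The list median was 0.09 and 0.10. Ctnnb1 siRNA lowered 2 of the 21, Ctnnb1 itself (log2 -1.26 with vehicle and -1.24 with dDAVP) and Jun (-0.71 and -0.62, SE 0.07 each, adjusted p = 0.000157 and 0.000738). Ctnnb1 is the target of the siRNA. Between siRNAs 0.43% of all tested genes were called with vehicle and 0.267% with dDAVP, in either direction. The GATA factors Gata2 (log2 0.90, SE 0.30, adjusted p = 0.155) and Gata3 (0.29, adjusted p = 0.344) did not pass the test with dDAVP and control siRNA. Creb1, the cyclic AMP response element binding protein, stood at log2 -0.04.

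Of 26 genes for AQP2 trafficking and turnover, 1 rose with dDAVP and control siRNA, Nedd4l, a ubiquitin ligase (log2 0.40, SE 0.09, adjusted p = 0.0195), and 0 with Ctnnb1 siRNA, where Nedd4l was at 0.31 (adjusted p = 0.0697). These counts are near the 1.91% and 2.08% of all tested genes called higher. Medians were 0.03 and 0.02. With Ctnnb1 siRNA, 5 of the 26 had an unadjusted p under 0.05. Between siRNAs edgeR called 0 of the 26, and 2 with vehicle and 4 with dDAVP had an unadjusted p under 0.05. This count is near the 0.43% and 0.267% of all tested genes called with vehicle and dDAVP. Of 15 principal cell markers, 12 were tested and 4 rose with dDAVP under each siRNA. With control siRNA these were Aqp2, Tmem45b (log2 0.57, SE 0.08), Avpr2 and Aqp3. With Ctnnb1 siRNA they were Aqp2, Tmem45b (0.72), Avpr2 and Nr3c2. Medians were 0.35 and 0.58, against -0.00422 and -0.00493 over all tested genes. Beside these marker counts, 1.91% and 2.08% of all tested genes were called higher with control and Ctnnb1 siRNA. Aqp2 and Aqp3 are also genes of the set described above, and Aqp2 passed the filter through its dDAVP libraries.

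Markers of other cell types were followed beside these results. Of 13 intercalated cell markers, 9 were in the table and 7 tested. Aqp6 and Atp6v0a4, a subunit of the vesicular proton pump (log2 1.01, SE 0.12), rose with dDAVP and control siRNA. With Ctnnb1 siRNA the same pair and Slc4a9, an anion exchanger (3.91, SE 0.77), rose. Slc4a9 did not exceed 0.52 TPM in any library and was not called with control siRNA (log2 1.14, adjusted p = 0.549). Aqp6 is also a gene of the set described above. Beside the marker counts, 1.91% and 2.08% of all tested genes were called higher with dDAVP under control and Ctnnb1 siRNA. The list's summed level was 144 to 175 TPM with vehicle and 178 to 202 TPM with dDAVP under control siRNA. Most of it was Car2 (61.4 to 102 TPM over all libraries) and Atp6v1b1 (54.0 to 65.3 TPM). Slc4a1, the exchanger that defines acid-secreting cells, did not exceed 0.06 TPM in any library. Of the 5 epithelial markers, Krt18 and Krt19 rose with dDAVP under each siRNA, by log2 0.26 to 0.37. Thick limb and distal tubule markers summed to at most 0.47 TPM. Fibroblast, endothelial and leukocyte markers summed to 4.60 to 8.55 TPM, of which Cd68 made 3.85 to 8.03 TPM, and proximal tubule and thin limb markers to 8.35 to 13.4 TPM, mostly Lrp2 (8.25 to 13.2 TPM). Of these last 3 lists, 0, 4 and 2 genes could be tested, and edgeR called none of them for dDAVP or siRNA, with at most 1 per list and comparison at an unadjusted p under 0.05. Lists this short would seldom hold a call at the shares of all tested genes. The part of other cell types in the aquaporin values was not tested.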

How the data were processed

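The labels describe stranded libraries of total RNA after ribosomal depletion. Per the submitters' processing notes, FastQC, Trimmomatic, HISAT2, StringTie and DESeq2 were used with GRCm38 (mm10), and versions are not given in the sources used here. Per the file headers, the authors deposited 12 columns of read counts and 12 of TPM for 25208 genes. The counts are whole numbers, and the TPM values carry a length normalisation by the authors. Use of the strand in counting is not stated.

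The counts went into edgeR 4.0.16 in R 4.3.3 (filterByExpr, TMM, robust quasi-likelihood, 1 coefficient per group, all 12 libraries). The filter kept 16508 genes with 99.97% of reads, and the common biological coefficient of variation was 8.26%. Contrasts were dDAVP within each siRNA, siRNA within each treatment, and the interaction. Benjamini-Hochberg adjustment ran over all tested genes. The SE of an edgeR log2 value was derived from that value and the F statistic of its test. For a gene near 0 reads in a group this SE can be smaller than counting error. Intervals of log2 values are 95% and use this SE. They take fewer degrees of freedom than the test, so an interval and its p can differ. Ratios of reads carry exact 95% counting intervals and 0 reads a limit of 3 counts, which cover counting error only, since reads are not independent molecules. The fit was tested on simulated data. Alternatives used DESeq2 1.42.0 and limma 3.58.1 (on log2 TPM), other scalings and filters, 2 groups only, a replicate block, and each library left out in turn. Same-numbered libraries did not deviate together, so replicate numbers were not taken to pair them.

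The genes and the lists (V2 receptor and cyclic AMP pathway, proposed Aqp2 transcription regulators, Aqp2 trafficking and turnover, and 6 marker lists) were chosen with earlier results of these data known. Genes were named by this rule: the 10 genes of the set and Ctnnb1 always, called genes within 250 kb of Aqp2, the 5 genes most correlated with Aqp5 and with Aqp2 (log2 CPM, prior count 2), and up to 4 called genes per list by smallest adjusted p. Gata2, Gata3, Creb1, Nedd4l with Ctnnb1 siRNA, Avpr2 as a further called gene of the first list and the marker levels were added after their values were seen. Promoters and coordinates are from RefSeq (GRCm38.p6).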

Additional observations from a re-analysis of the deposited data

How the results depend on the processing

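The count of the 8 tested genes called for dDAVP with control siRNA was 5 and stayed between 4 and 6 under the other scalings, filters, tools and sample choices. It was 3 with limma on log2(TPM + 0.1), an alternative chosen after seeing the data, where Aqp6 (adjusted p = 0.0732) and Aqp3 (0.0505) missed the threshold. With Ctnnb1 siRNA the count was 3, and 2 to 4 with a library left out. Counts of 0 between siRNAs and for the interaction stayed 0 under every alternative run. With the replicate block the counts were 4 and 3 for dDAVP and 0 otherwise, and Aqp3 lost its call (adjusted p = 0.0632). Same-numbered libraries of different groups had correlations of -0.15 to 0.19 in their deviations, 2 of 18 over 0.1.

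Aqp2 and Aqp5 kept their calls for dDAVP under every alternative, with fitted log2 values of 3.21 to 11.03 and 2.46 to 7.13 for Aqp2 and 2.06 to 2.42 and 1.94 to 2.32 for Aqp5. The value of 11.03 is from the fit with no vehicle reads of Aqp2 left. Gm34765 with Ctnnb1 siRNA was called by DESeq2 (adjusted p = 0.0299), and Faim2 with control siRNA in a fit of the 2 groups (0.0443). A filter of 1 CPM in 3 libraries left 5 of the 8 genes.

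Sign changes were limited to differences that were never called, and their cause was not tested. On log2(TPM + 1) and log2(TPM + 0.1), the siRNA difference with vehicle was -0.000195 and -0.0012 for Faim2 and -0.0536 and -0.0539 for Racgap1. The median over all tested genes was -0.0682 and -0.0799 in these fits, against -0.0029 by edgeR. With a library left out, the siRNA difference with vehicle ran from -0.23 to 0.049 for Aqp5, -0.39 to 0.044 for Aqp6, -1.89 to 3.56 for Gm34765 and -0.32 to 0.32 for Faim2. The interaction ran from -0.24 to 0.039 for Aqp5 and -4.13 to 1.32 for Gm34765. For Gm34765 the ends of both ranges are from fits with no reads left in a vehicle group. For Aqp11 the log2 values ran from -0.87 to 0.088 and -0.53 to 0.22 for dDAVP with control and Ctnnb1 siRNA, -0.49 to 0.48 between siRNAs with dDAVP, and -0.19 to 0.77 for the interaction.

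On log2(TPM + 1), 170 of 401 called genes of the table were higher with dDAVP and control siRNA, against 316 of 467 by edgeR, and 133 of 210 against 344 of 459 with Ctnnb1 siRNA. With a library left out, edgeR called 242 to 847 and 216 to 503 genes of the table for dDAVP with control and Ctnnb1 siRNA, and 21 to 180 and 5 to 217 between siRNAs with vehicle and dDAVP. Each of these highest counts was without Ctnnb1-siRNA dDAVP replicate 3. On log2(TPM + 1), between siRNAs it was 15 of 59 against 34 of 71 with vehicle, and 4 of 21 against 20 of 44 with dDAVP. The order of TPM levels was checked against reads per kilobase of GENCODE M21 exons: the top 5 genes kept their order in both dDAVP groups, Aqp11 and Aqp1 changed places with control siRNA and vehicle, as did Aqp6 and Aqp3 with Ctnnb1 siRNA and vehicle, and the lower ranks moved in all 4 groups. Read number limits Aqp1, Aqp4, Aqp11, Gm34765 and Faim2, and Aqp2 without dDAVP.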
